A study of Mus musculus with 36 samples.

Results

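The genes of the major histocompatibility complex (MHC, called H2 in the mouse) and of antigen presentation were examined in the liver of 36 mice. Members were the non-control probes whose gene name in the scanner files begins with H2- or is B2m, Cd74, Ciita, Tap1, Tap2, Tapbp, Ctss, Canx, Calr or Cd1d1. The rule also asks for Erap1, a name that no probe carries. This gave 73 probes of 46 genes among 41174 non-control probes, and 57 of them, of 34 genes, are among the 21781 probes of the processed value table on which the groups were compared. The rule uses gene names and no measured value. The scanner files name 27745 genes in all.

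All mice were adult males of the strain that the labels give as C57BL/6J and the study's methods as C57BL/6JOlaHsd. They ate a mild-high-fat diet, with 30% of energy as fat, through an adaptation phase. The labels give this phase as 3 weeks, and the study's methods give it as shorter. The t=0 group was killed at its end. The HF group stayed on this diet for 12 more weeks, and the HF-Q group ate it for the same 12 weeks with 0.33% (w/w) quercetin, a plant flavonol. Each group held 12 mice with 1 array each, on which the Cy5-labelled RNA of the mouse was hybridised against a Cy3-labelled pool of all samples. The t=0 mice were killed 12 weeks before the others, so that time on the diet, age and day of sampling cannot be told apart in any comparison with t=0.

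MHC class I molecules are made of a polymorphic heavy chain and the constant light chain β2-microglobulin (B2m), and they present peptides from inside the cell on nearly all nucleated cells. The transporter Tap1/Tap2 carries those peptides into the endoplasmic reticulum, where tapasin (Tapbp), calreticulin (Calr) and calnexin (Canx) assist folding and loading. Class II molecules are made of an alpha and a beta chain, are found mainly on macrophages, dendritic cells and B cells, and present peptides taken up from outside. Their loading needs the invariant chain (Cd74), the protease cathepsin S (Ctss) that cuts it, and the exchange factor H2-DM, while Ciita is the transactivator that switches the class II genes on. In liver, class II is known from Kupffer cells, the resident macrophages, and other immune cells rather than from hepatocytes.

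The 3 genes that mark the set, Cd74, H2-Aa and H2-K1, were well above background in Cy5 on all 36 arrays, as were 55 of the 57 probes in the value table. No member spot was saturated. The 16 member probes outside the table were dim. They include H2-Ea, which is not made into protein in mice of this haplotype and was above background on 1 array, both H2-Eb2 probes, H2-Ob, H2-T3 and 8 genes of the H2-M series. All 16 were above background on the array of HF-Q replicate 2, where 96.7% of all non-control spots were called above background in Cy5 against 56.4 to 67.4% on the other 35 arrays, so a single detection of such a probe is that of this array. Brightness depends on the probe, and levels of different genes are therefore not compared here.

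Besides this array, 4 mice stood apart in the members, each with the highest or lowest value of its group in most class II genes. In t=0 replicate 4, all 10 class II genes of the table and 17 of 21 class I genes were the highest of their group, against 12.8% of all probes. In HF replicate 9, 8 of 10 class II genes and 17 of 21 class I genes were the highest, against 6.05% of all probes. HF-Q replicate 7 was the highest in 9 of 10 class II genes, with 3 of 21 in class I and 5.09% of all probes. HF replicate 5 was the lowest in 7 of 10 class II genes and 12 of 21 class I genes, against 17.4% of all probes. The counts of called members are given with and without these mice and the array above.

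After 12 more weeks on the diet, 5 of 10 class II genes, H2-Ab1, H2-Aa, H2-DMa, H2-DMb1 and Ctss, were higher than at t=0. In HF against t=0, 12 of the 57 member probes were called, all higher, at an adjusted p under 0.05 by limma over all 21781 probes. That is 21.1% of the members, next to 21.3% of all probes called in either direction and 10.9% called higher, so the members as a whole were called about as often as any probes. The calls lay mostly in class II, with 8 of 15 probes (53.3%) and 5 of 10 genes, whereas in class I 3 of 39 probes (7.69%) and 3 of 21 genes were called. The median log2 difference was 0.53 over the class II probes, 0.08 over the class I probes and -0.00473 over all probes. In whole liver, more cells of a type and more RNA per cell cannot be told apart. The 13 Kupffer cell and macrophage markers examined had a median difference of 0.31, all positive, with 2 called. Without t=0 replicate 4 their median was 0.38 with 10 called, next to 12.0% of all probes called higher. The part of these markers in the class II differences was not tested.

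The beta chain H2-Ab1, which pairs with H2-Aa to form the I-A molecule, was called with all 4 of its probes, at log2 differences from 0.68 to 0.77. By its brightest probe the log2 signal ran from 11.09 over a median of 11.69 to 13.78 in t=0, from 11.78 over 12.58 to 13.50 in HF and from 11.39 over 12.51 to 13.20 in HF-Q. Replicates 4 and 10 were the highest t=0 mice, at 13.78 and 12.59. The ranges overlap, with 5 t=0 mice above the lowest HF mouse, while all 12 HF mice lay above the t=0 median. The difference of HF from t=0 was 0.68 ± 0.23 (SE, n = 12 a group), a 1.60-fold higher signal, with a limma adjusted p of 0.037.

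The alpha chain H2-Aa gave log2 signals of 7.84, 8.28 and 10.00 (lowest, median and highest) in t=0, of 8.38, 9.07 and 9.64 in HF and of 8.12, 8.94 and 9.66 in HF-Q. Every HF mouse was above the t=0 median here too, and the groups overlap through the 4 highest t=0 mice. Its brightest probe was 1.49-fold higher in HF (log2 difference 0.58 ± 0.21, SE, limma adjusted p = 0.045), and its other probe did not pass (0.48, adjusted p = 0.097). For H2-Eb1, the beta chain of the I-E molecule, the difference was 0.49 ± 0.20 (SE) with an adjusted p of 0.078 by limma, which misses the threshold. The only H2-Eb1 probe lies at chr17:33922800-33923261 in mouse build mm8 and carries an accession that matched no current RefSeq gene.

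**Figure D1:**
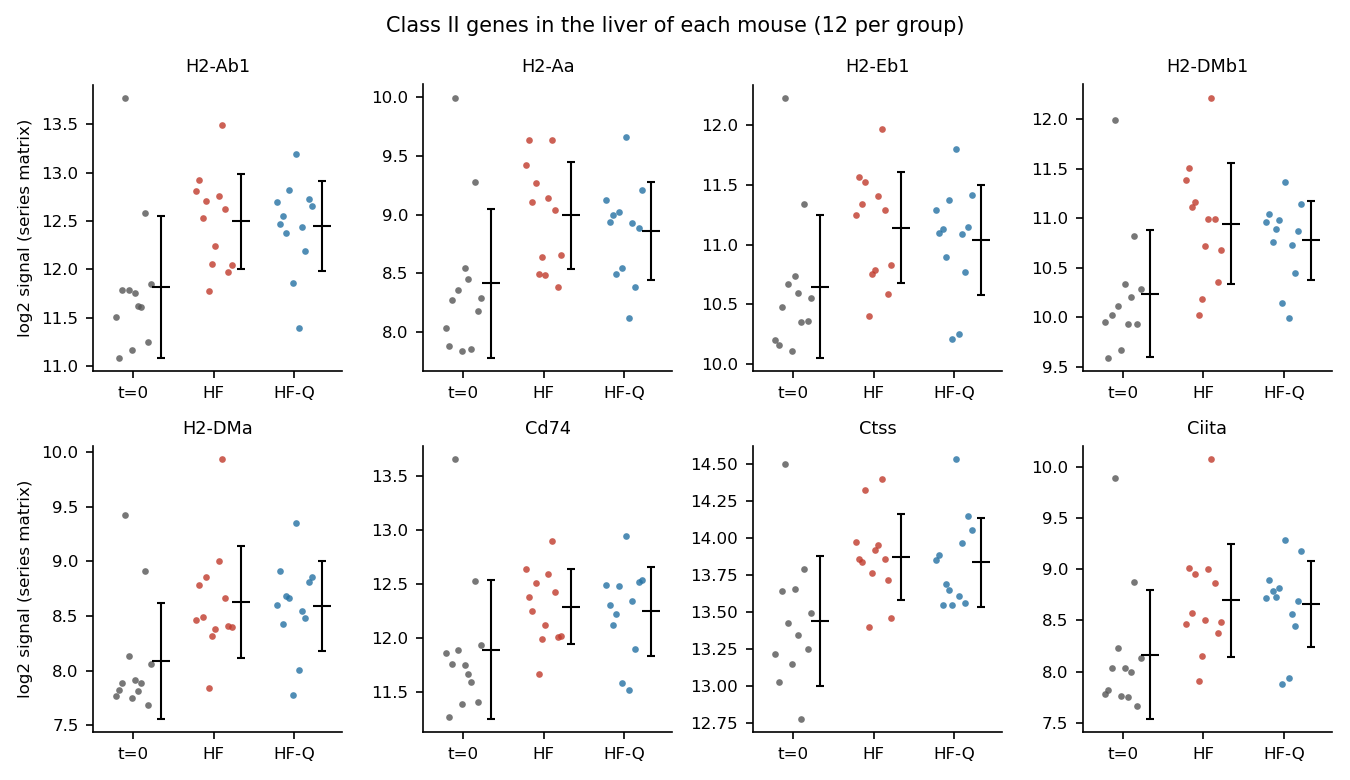
Log2 signal (series value table, y axis) of 8 class II genes by brightest probe, with 1 point for each of the 12 mice of t=0, HF and HF-Q and the mean ± SD beside them in black. The lone high t=0 point, at 13.78 for H2-Ab1 and 13.66 for Cd74, is replicate 4, and most other t=0 mice lie below the HF and HF-Q means.

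In the loading machinery, H2-DMa and H2-DMb1, an alpha and a beta chain of the peptide exchange factor H2-DM, were called. H2-DMb1 ran from 9.59 over 10.07 to 11.99 in t=0, from 10.02 over 11.00 to 12.22 in HF and from 9.99 over 10.88 to 11.37 in HF-Q, and was 1.63-fold higher in HF than in t=0 (0.71 ± 0.23, SE, limma adjusted p = 0.031). H2-DMa was 1.46-fold higher (0.54 ± 0.19, adjusted p = 0.047), with 11 of 12 HF mice above the t=0 median. Ctss, the protease that trims the invariant chain, had medians of 13.39, 13.86 and 13.77 in t=0, HF and HF-Q and was 1.35-fold higher in HF (0.43 ± 0.14, SE, limma adjusted p = 0.029).

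Cd74 itself and the transactivator Ciita did not pass. Cd74 gave 11.27, 11.75 and 13.66 (lowest, median and highest log2 signal) in t=0, 11.66, 12.31 and 12.90 in HF and 11.52, 12.32 and 12.95 in HF-Q. The difference of HF from t=0 was 0.40 with a 95% interval from 0.0021 to 0.79 and a limma adjusted p of 0.14. Ciita differed by 0.53 (0.08 to 0.98, adjusted p = 0.084). H2-DMb2 and H2-Oa, the latter a chain of the modulator H2-DO, differed by 0.28 and 0.14 without passing.

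These counts depended on single mice. Without t=0 replicate 4, 13 of 15 class II probes were called in HF against t=0, next to 24.0% of all probes called and 12.0% called higher. Cd74 (0.56, limma adjusted p = 0.00356), Ciita (0.69, 0.00611) and H2-Eb1 (0.64, 0.00489) were among them. Without HF replicate 9, 3 of 15 were called, all of H2-Ab1, next to 20.9% of all probes called and 11.1% called higher. Without HF replicate 5 there were 10, next to 21.8% and 11.8%. With the slide as a fixed block, 3 were called, of H2-Ab1 and Ctss, at a median class II difference of 0.54, and with it as a random block 8. On single slides the HF mean of H2-Ab1 lay above the t=0 mean on 7 of 9 slides, with slide-wise log2 differences from -0.77 to 1.64.

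After 12 weeks with quercetin H2-Ab1 was the class II gene called against t=0. In HF-Q against t=0, 5 of 57 member probes were called, all higher (8.77%, next to 11.9% of all probes called and 6.62% called higher), and 3 of them were probes of H2-Ab1, at log2 differences from 0.67 to 0.72. The brightest H2-Ab1 probe was not among them (0.63 ± 0.23, SE, limma adjusted p = 0.070). H2-Aa differed by 0.45, H2-DMb1 by 0.54, H2-DMa by 0.51, Ctss by 0.40, Cd74 by 0.35 and Ciita by 0.49, each with an adjusted p from 0.061 to 0.27. Without t=0 replicate 4, 14 of 15 class II probes were called, without HF-Q replicate 2 the same number as with it, 3, and without HF-Q replicate 7 there were 2. Of all probes, 14.7%, 12.7% and 9.61% were called in these settings, in that order, and 7.97%, 6.72% and 5.51% were called higher. Both comparisons share the t=0 mice.

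Promoter sequences are shown for 4 class II genes to set the letters of known class II promoter elements beside the genes described above. Class II promoters are known for an X box and a Y box, which bind the factors that recruit Ciita. The letters ACNGATG (part of an X box), CTGATTGG (a Y box) and its core ATTGG, which overlaps it, were searched on both strands in the 250 bases before the start site in RefSeq's table for GRCm38.p6, which holds 33 of the 46 member genes and has no entry for H2-Ab1, Cd74 or Ciita. Capitals mark matches, on either strand, and each stretch runs from -150 to -21, counted from the start. H2-Aa lies at chr17:34287844-34287973 on the reverse strand, H2-Eb1 at chr17:34305717-34305846 on the forward strand, H2-DMb1 at chr17:34153041-34153170 on the forward strand and H2-DMa, for the first of its 2 listed starts, at chr17:34122682-34122811 on the forward strand.
H2-Aa: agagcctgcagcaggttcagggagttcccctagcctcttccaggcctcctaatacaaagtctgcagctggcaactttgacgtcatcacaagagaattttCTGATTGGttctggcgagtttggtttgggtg
H2-Eb1: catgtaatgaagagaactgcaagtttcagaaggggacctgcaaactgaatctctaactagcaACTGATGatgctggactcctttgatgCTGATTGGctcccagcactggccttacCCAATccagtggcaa
H2-DMb1: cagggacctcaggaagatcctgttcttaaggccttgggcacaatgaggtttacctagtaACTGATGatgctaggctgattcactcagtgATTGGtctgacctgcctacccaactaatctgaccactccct
H2-DMa: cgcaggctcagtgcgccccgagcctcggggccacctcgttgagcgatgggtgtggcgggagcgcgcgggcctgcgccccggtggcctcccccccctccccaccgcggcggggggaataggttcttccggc
H2-Eb1 holds the part of the X box at -88 and the Y box at -62, H2-DMb1 holds the former at -91 and the core of the latter at -61, H2-Aa holds the Y box at -51, and the H2-DMa stretch holds none of these letters. Outside the printed stretches, H2-Aa holds ACNGATG at -232 on the other strand, and the second listed start of H2-DMa has ATTGG at -198. Over the 9 class II genes with an entry, CTGATTGG was found in 4, its core in 8 and ACNGATG in 7. The same letters stand in 3.83%, 33.8% and 8.31% of the 32851 promoters of the table, and CTGATTGG also in 11 of 18 class I heavy chain genes, so they are not particular to class II.

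The classical class I genes H2-K1, H2-D1 and B2m did not pass the test. H2-K1, the K heavy chain, had log2 signals of 16.81, 17.04 and 17.99 (lowest, median and highest) in t=0, of 16.75, 17.34 and 17.83 in HF and of 16.97, 17.24 and 17.47 in HF-Q. No group stood out, all 12 t=0 mice lay above the lowest HF mouse, and the difference of HF from t=0 was 0.17 with a 95% interval from -0.05 to 0.40 (limma adjusted p = 0.26). Its other 3 probes differed by -0.01 to 0.15. H2-D1, the D heavy chain, differed by 0.03 and B2m by 0.17 (adjusted p = 0.23), with B2m medians of 16.38, 16.57 and 16.58. Of the 27 class I heavy chain probes 3 were called in HF against t=0, all higher. That is 11.1%, next to 21.3% of all probes called and 10.9% called higher. Of the 9 probes of the loading genes none was called. By brightest probe Tapbp differed by 0.20, Tap2 by 0.18, Tap1 by 0.14 and Canx by 0.07, none of which passed. The 1 loading probe with an unadjusted p under 0.05 was another of Canx (-0.18, limma adjusted p = 0.12), which was called lower without t=0 replicate 4 (-0.22, adjusted p = 0.045). Canx was also called in HF against t=0 with normexp and loess, with the Feature Extraction processed signals and after quantile normalization. In each of these 1 member probe was called lower. In HF-Q against t=0 without HF-Q replicate 7 the brightest Canx probe was called higher (0.19, adjusted p = 0.047). H2-K1 did pass without t=0 replicate 4 (0.25, limma adjusted p = 0.039).

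The class I calls were those of 3 less common heavy chains, and in HF against t=0 heavy chain probes were called higher about as often as any probes. H2-M3, which presents formylated peptides of bacteria and mitochondria, ran from 9.01 over 9.19 to 9.90 in t=0, from 9.24 over 9.66 to 10.37 in HF and from 9.30 over 9.58 to 9.87 in HF-Q. All 12 mice of both later groups lay above its t=0 median. It was 1.32-fold higher in HF (0.40 ± 0.11, SE, limma adjusted p = 0.011) and 1.25-fold higher in HF-Q (0.32 ± 0.08, adjusted p = 0.012) than in t=0. H2-Q8, of the Qa-2 region, was 1.35-fold higher in HF (0.43 ± 0.12, adjusted p = 0.012), and in HF-Q its difference of 0.26 did not pass (adjusted p = 0.12). H2-T10, a T region gene, differed by 0.15 in HF and 0.19 in HF-Q and did not pass. In HF against t=0, H2-M3, H2-Q8 and H2-Q1 were also called without t=0 replicate 4, without HF replicate 9, without HF replicate 5 and with the slide as a block.

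H2-Q1 was called with 1 of its 3 probes. At that probe (chr17:34933059-34933118 in mm8) the log2 signal ran from 8.64 over 9.12 to 9.44 in t=0, from 9.68 over 10.03 to 10.82 in HF and from 9.61 over 9.99 to 10.83 in HF-Q. No t=0 mouse reached the lowest mouse of either later group, and HF was above t=0 on 9 of 9 slides. How many of all probes separate the groups in this way was not counted. The differences were 0.94 ± 0.11 (SE, limma adjusted p = 1.6e-06) in HF and 0.95 ± 0.13 (3.0e-05) in HF-Q, 1.91-fold and 1.94-fold. The other probes, at chr17:34929602-34931174 and chr17:34992062-34992121, differed by 0.08 and 0.03 in HF. The last of these lies between the H2-Q2 probe and the H2-Q8 probe, and neither it nor the called probe carries an accession that matched a current RefSeq gene, so which transcript the called probe reads cannot be said. Some Q and T genes are close copies of one another, and a probe of one may bind several. Their sequences were not compared here. The H2-Q9 probe, for example, lies between probes of H2-Q10.

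**Figure D2:**
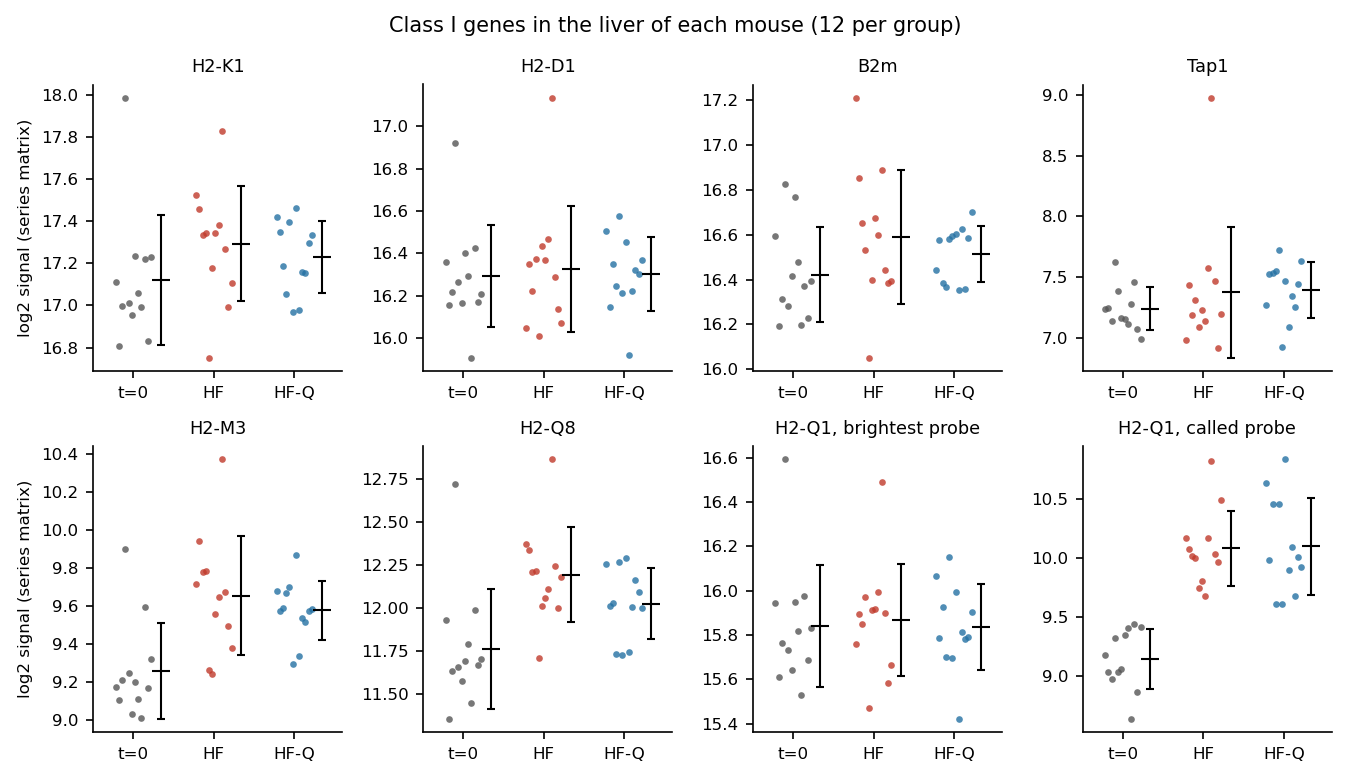
Log2 signal (series value table, y axis) of class I genes by brightest probe, and of the called H2-Q1 probe, with 1 point for each of the 12 mice of t=0, HF and HF-Q and the mean ± SD beside them in black. The t=0 mice end at 9.44 for the called H2-Q1 probe and both later groups begin above that, while the ranges overlap for the other genes.

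Stretches before the start of 4 class I heavy chain genes are printed to show an element shared by a gene that was called, H2-M3, and by 3 that were not. The letters TTTCNNTTC, the core of an interferon-stimulated response element, were found on either strand in 5 of 18 class I heavy chain genes with an entry, in 1 of 9 class II genes and in 6.31% of all promoters. Capitals mark the match, and each stretch runs from -180 to -51 in GRCm38.p6. H2-K1, for the first of its 2 listed starts, lies at chr17:34000398-34000527 on the reverse strand, H2-D1 at chr17:35262914-35263043 on the forward strand, H2-Q10 at chr17:35469909-35470038 on the forward strand and H2-M3 at chr17:37270054-37270183 on the forward strand.
H2-K1: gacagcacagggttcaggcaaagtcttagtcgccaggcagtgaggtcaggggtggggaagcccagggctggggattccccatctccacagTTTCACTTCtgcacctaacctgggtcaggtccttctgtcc
H2-D1: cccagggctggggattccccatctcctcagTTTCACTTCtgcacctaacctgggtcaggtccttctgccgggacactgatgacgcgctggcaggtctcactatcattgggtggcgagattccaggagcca
H2-Q10: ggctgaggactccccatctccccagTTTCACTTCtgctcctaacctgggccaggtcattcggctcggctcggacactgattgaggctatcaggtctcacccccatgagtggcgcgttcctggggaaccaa
H2-M3: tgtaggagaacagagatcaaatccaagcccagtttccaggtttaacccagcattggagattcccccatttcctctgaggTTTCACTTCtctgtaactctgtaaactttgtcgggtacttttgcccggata
The match begins at -90 in H2-K1, -150 in H2-D1, -155 in H2-Q10 and -101 in H2-M3. A match of letters does not say that a factor binds there.

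Of the members with another function, H2-Ke2 is the file's name for the prefoldin subunit Pfdn6, which only lies in the complex. It was 1.12-fold higher in HF than in t=0 (0.16 ± 0.05, SE, limma adjusted p = 0.030) and on 9 of 9 slides. It was not called with the slide as a fixed block (0.14, adjusted p = 0.078), with the replicate number as a block (0.16, 0.056), after quantile normalization (0.11, 0.054) or with all 73 probes after normexp and loess (0.11, 0.055). H2-Ke6 differed by -0.04. Cd1d1, which presents lipids to NKT cells, differed by -0.06 in HF and 0.04 in HF-Q from t=0, and did not pass.

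No member was called between the quercetin group and its control. In HF-Q against HF, 0 of 57 member probes were called (513 of 21781 probes, 2.36%), with 3 at an unadjusted limma p under 0.05 and 0 by the methods' t-test after adjustment. The log2 differences of the members ran from -0.17 to 0.30, with a median of -0.03 over the members and 0.01 over all probes. The largest was that of an H2-Bl probe (0.30, adjusted p = 0.12), of which 1 other probe differed by 0.23 and the brightest by -0.02. The highest HF-Q value of the first 2 is that of replicate 2, at 8.07 against 7.66 in the next mouse and 7.30 against 6.94. Without this array they differed by 0.25 and 0.19, and 1 member probe in place of 3 had an unadjusted p under 0.05. Among class I genes H2-T24 (0.17), H2-Q8 (-0.17), H2-Q9 (-0.11) and Tapbp (-0.10) differed most, and the high value of H2-T24 in HF-Q is that of replicate 2, at 7.84 against 6.94 in the next mouse, and it differed by 0.07 without that array. No member was called without HF-Q replicate 7, HF replicate 5 or HF replicate 9 either. With background correction and loess on the scanner intensities, 2 probes were called, of Canx and H2-Bl.

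The intervals show what size of difference these 24 mice leave possible. For Cd74 the difference of HF-Q from HF was -0.04 with a 95% interval from -0.34 to 0.25, for H2-Ab1 -0.05 (-0.42 to 0.32), for H2-Aa -0.13 (-0.47 to 0.20) and for H2-DMb1 -0.17 (-0.57 to 0.23). For H2-K1 it was -0.06 (-0.25 to 0.12) and for B2m -0.08 (-0.26 to 0.11). Over the class II genes the intervals reach from -0.57 to 0.34, and differences within them are not shown to be absent.

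**Figure D3:**
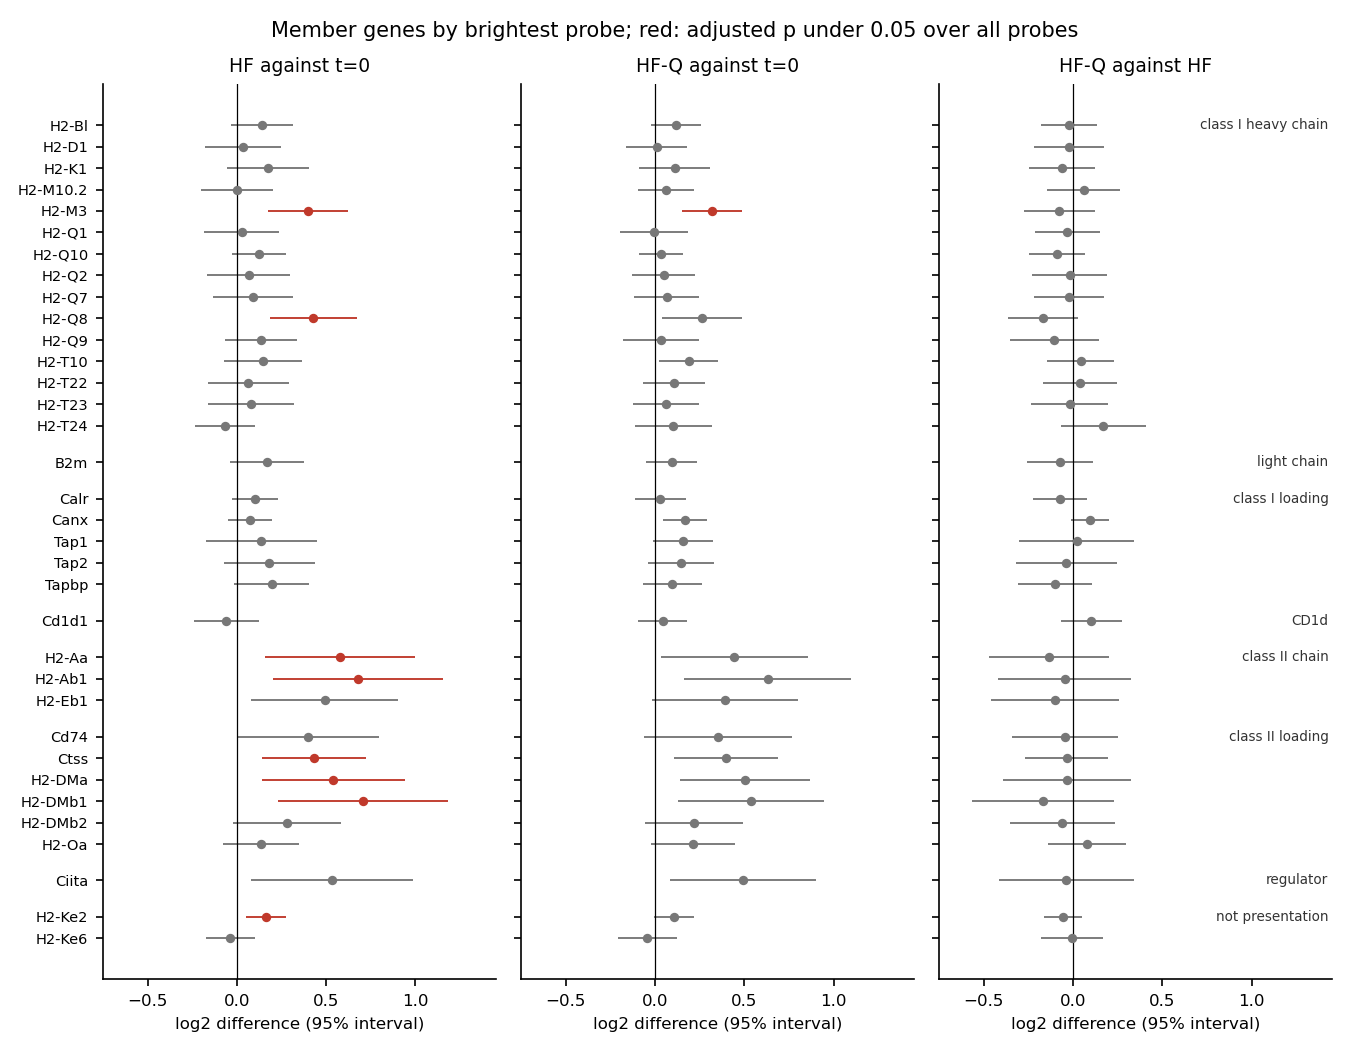
Log2 difference with its 95% interval (x axis) for the 34 member genes in the value table, by brightest probe and grouped by role, in HF against t=0, HF-Q against t=0 and HF-Q against HF, with called genes in red. In HF against t=0 all 10 class II genes lie to the right of 0, from 0.14 to 0.71, and in HF-Q against HF no gene is red.

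The median SD of the log2 signals of the class II genes over the mice of a group was 0.62 in t=0, 0.46 in HF and 0.41 in HF-Q, against 0.21, 0.30 and 0.18 for the class I genes and 0.16, 0.17 and 0.17 for all probes. In t=0 replicate 4 the class II genes lay 0.94 to 2.16 above the median of the other 11 t=0 mice, led by H2-Ab1, Cd74 (1.90) and H2-DMb1 (1.97), and the class I genes by a median of 0.64. In HF replicate 9 the class II genes lay 0.34 to 1.57 above the median of the other 11 HF mice, led by Ciita, H2-DMa (1.48) and H2-DMb1 (1.22). This mouse also had the highest Tap1, Tap2 and Tapbp, by 1.78, 1.36 and 1.00, which t=0 replicate 4 exceeded its group in by 0.46, 0.27 and 0.64. In HF-Q the highest class II mouse was replicate 7, first in 9 of 10 genes. Its median excess over the median of the other HF-Q mice was 0.68, and 0.16 in class I.

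**Figure D4:**
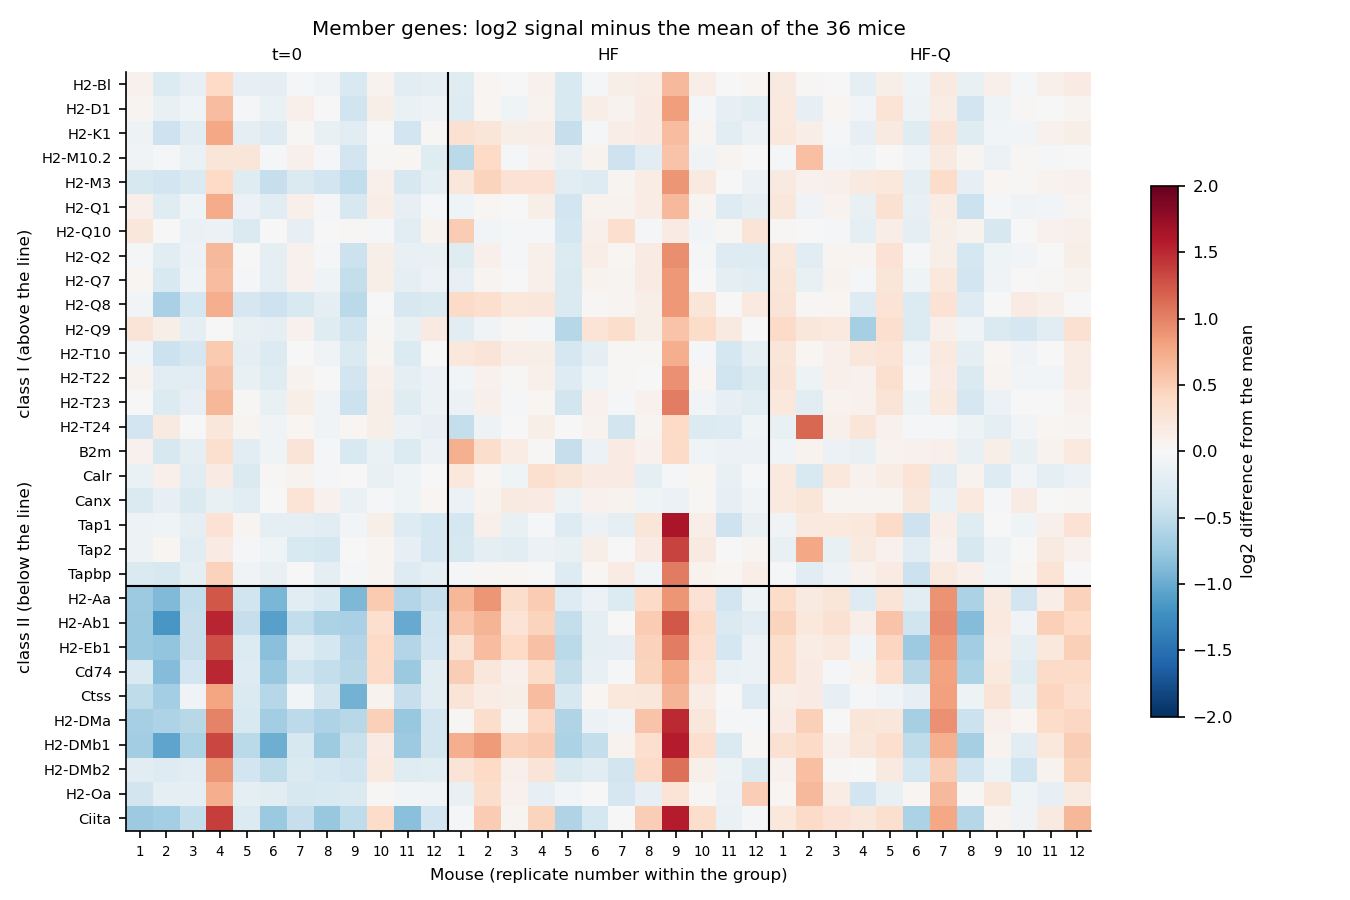
Log2 signal minus the mean of the 36 mice (colour, from -2 in blue to 2 in red) for the class I genes above the line and the class II genes below it, in every mouse of t=0, HF and HF-Q (x axis, replicate number). In the class II rows t=0 replicate 4, HF replicate 9 and HF-Q replicate 7 have the highest value of their group in 10, 8 and 9 of 10 genes. Other mice also lie above the mean of the 36.

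H2-Ab1, H2-Aa and Ciita varied with Cd74 within each group. Over the 12 mice of a group, 30 relations were computed, each with a permutation test of 100000 resamples and adjusted over the 30. Cd74 and H2-Ab1 had Pearson's r of 0.989 in t=0 (Spearman's rho 0.930), 0.954 in HF (0.909) and 0.958 in HF-Q (0.888), with permutation p values of 3.0e-05, 2.0e-05 and 1e-05, the last the smallest they can give, 3.0e-04 each after adjustment. Without the 2 mice farthest from the Cd74 median r was 0.907, 0.917 and 0.932. Cd74 and H2-Aa (r = 0.942, 0.855 and 0.893, rho 0.748, 0.797 and 0.811) and Cd74 and Ciita (0.969, 0.853 and 0.913, rho 0.804, 0.762 and 0.713) had adjusted permutation p values of at most 0.0016 for r and 0.021 for rho, and without those 2 mice r was 0.592, 0.817 and 0.879 and 0.672, 0.699 and 0.760.

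Cd74 was also set beside markers of single cell types and Irf1. With Clec4f, a lectin of Kupffer cells, r was 0.786 in t=0 (rho 0.594), 0.063 in HF (rho -0.056) and 0.548 in HF-Q (rho 0.741), with permutation p values of 0.0072, 0.85 and 0.064 for r and 0.046, 0.87 and 0.0078 for rho. The value in t=0 rests on replicates 4 and 10, without which r is 0.301, in HF it is 0.361 without replicates 5 and 9, and in HF-Q it is 0.719 without replicates 6 and 8. With Cd79b, a chain of the B cell receptor, r was 0.543, -0.381 and -0.118 (rho 0.434, -0.315 and -0.021), with permutation p values of 0.084, 0.22 and 0.71 for r and 0.16, 0.32 and 0.96 for rho. Irf1, an interferon-induced transcription factor, gave r of 0.517, 0.741 and 0.661 with Cd74 (rho 0.476, 0.741 and 0.643), with permutation p values of 0.076, 0.0050 and 0.019 for r and 0.12, 0.0079 and 0.028 for rho. After adjustment the Clec4f p for r was 0.013, 0.85 and 0.084, and that of Irf1 0.095, 0.010 and 0.031. Without the 2 farthest mice r with Irf1 was 0.473, 0.535 and 0.559. Differences between these groups in r were not tested, and a slide holds 4 arrays, too few for values within a slide.

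In class I, H2-K1 and B2m had r of 0.787 in t=0, 0.857 in HF and 0.454 in HF-Q (rho 0.790, 0.937 and 0.357), with permutation p values of 0.00066, 0.00096 and 0.14 for r (adjusted 0.0016, 0.0022 and 0.16) and 0.0034, 3.0e-05 and 0.26 for rho. H2-K1 and Irf1 had r of 0.643, 0.887 and 0.418 (rho 0.783, 0.916 and 0.476), with permutation p values of 0.011, 6.0e-05 and 0.18 for r (adjusted 0.020, 0.00045 and 0.20) and 0.0038, 9.0e-05 and 0.12 for rho. Without the 2 farthest mice r was 0.553, 0.923 and 0.127. For H2-K1 with Psmb8, a subunit of the immunoproteasome that makes peptides for class I, r was 0.833, 0.818 and 0.561 (rho 0.741, 0.846 and 0.497, permutation p = 0.0015, 0.00065 and 0.056 for r and 0.0079, 0.0011 and 0.10 for rho) and went to 0.483, 0.591 and 0.147 without the 2 farthest mice. For H2-K1 with Tap1 it was 0.628, 0.688 and 0.629 (rho 0.168, 0.497 and 0.483, permutation p = 0.041, 0.020 and 0.029 for r and 0.60, 0.10 and 0.12 for rho) and 0.130, 0.332 and 0.175 without them, so that this relation rests on those mice.

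**Figure D5:**
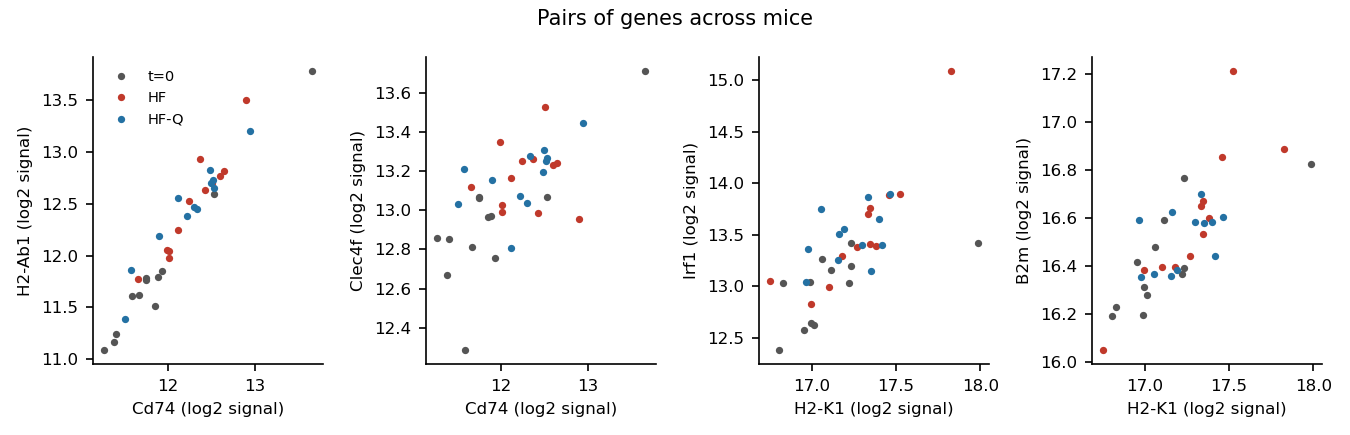
Log2 signals of 4 pairs of genes (x and y axes, series value table), with 1 point for each mouse, coloured by group. H2-Ab1 follows Cd74 closely in all 3 groups (r from 0.954 to 0.989), r with Clec4f ran from 0.063 to 0.786, and the lone red point high in Irf1 is HF replicate 9.

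Of 26 other genes of antigen processing that are not members, 24 are in the value table. In HF against t=0, 7 were called higher (29.2%, next to 10.9% of all probes) and 1 lower, with a median log2 difference of 0.20, and in HF-Q against t=0, 8 higher (33.3%, next to 6.62%) and 2 lower. Without t=0 replicate 4 the counts were 10 and 1 in HF and 11 and 1 in HF-Q, without HF replicate 9, 8 and 1, without HF-Q replicate 2, 9 and 0, and without HF-Q replicate 7, 6 and 0. Of all probes, 12.0%, 7.97%, 11.1%, 6.72% and 5.51% were called higher in these settings, in that order. The immunoproteasome subunit Psmb8 was higher in HF (0.52 ± 0.18, SE, limma adjusted p = 0.039, and 0.36 without HF replicate 9), and so were Irf1 (0.57), the class II factor Rfxap (0.32), the peptide-loading oxidoreductase Pdia3 (0.49, adjusted p = 5.6e-06), the chaperone Hspa5 (0.79) and the translocon subunits Sec61a1 (0.27) and Sec61b (0.32). Cd1d2 fell by 0.32. In HF-Q the genes called higher were Psmb8 (0.36), Psmb10 (0.30), Irf1 (0.50), Rfxap (0.20), Pdia3 (0.46), Hspa5 (0.69), Sec61a1 (0.23) and Sec61b (0.22), while Ctsl and Rfxank fell by 0.26 and 0.31. Psmb8, Rfxap, Ctsl and Rfxank were not called without HF-Q replicate 7, nor Ctsl and Rfxank without HF-Q replicate 2. With the slide as a fixed block Psmb8 was called in neither later group. None of the 24 was called in HF-Q against HF, where 6 differences were positive.

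Genes of the interferon-gamma response, the cytokine Ifng and its receptor chains among them, gave 2 of 14 higher in HF than in t=0 (14.3%, next to 10.9% of all probes), Irf1 and the receptor chain Ifngr1 (0.24). In HF-Q 4 were higher than in t=0 (28.6%, next to 6.62%), Irf1 (0.50), Igtp (0.90), Iigp1 (0.27) and Socs1 (0.40). Without t=0 replicate 4 there were 5 in HF and 10 in HF-Q, and without HF replicate 9 there were 2, with a median difference of 0.26 in place of 0.39. Of all probes, 12.0%, 7.97% and 11.1% were called higher in these settings, in that order. Their mean log2 signal ran from 10.12 to 11.31 in t=0, from 10.37 to 12.62 in HF and from 10.45 to 11.21 in HF-Q. The highest HF value is that of replicate 9, in which the GTPases Iigp1 and Igtp reached 19.46 and 17.45, against at most 16.36 and 14.20 in the other 11 HF mice, and the immunoproteasome subunit Psmb9 15.09 against 12.89. Ifng itself, at 6.88 in this mouse, lay within the 6.23 to 7.70 of the other HF mice. Ifngr1 (12.12 against 12.42) and Ifngr2 (10.96 against 11.03) lay below the median of the others. The part of these gene levels in the class I and class II values of this mouse was not tested.

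Marker genes of the cells that could carry class II were read from the same arrays. Of 13 Kupffer cell and macrophage markers, all in the value table, 2 were higher in HF than in t=0 (15.4%, next to 10.9% of all probes), the scavenger receptor Cd163 (0.53 ± 0.12, SE, limma adjusted p = 0.0018) and the complement gene C1qc (0.43, 0.0078), and all 13 differences were positive with a median of 0.31. In HF-Q against t=0, 3 were higher (23.1%, next to 6.62%), Cd163 (0.61), C1qc (0.32) and Folr2 (0.34), and none was called between HF-Q and HF. Without t=0 replicate 4 there were 10 in HF, at a median of 0.38, and 11 in HF-Q, at 0.37, without HF replicate 9 there were 3 in HF, with the slide as a fixed block 5, and without HF-Q replicate 7 there were 2 in HF-Q. Of all probes, 12.0%, 7.97%, 11.1%, 8.43% and 5.51% were called higher in these settings, in that order. The mean log2 signal of the list ran from 10.32 to 11.87 in t=0, from 11.01 to 11.90 in HF and from 10.96 to 11.66 in HF-Q, and t=0 replicate 4 held the highest value of its group in all 13 genes.

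Of the B cell markers reported here, Ms4a1 (CD20) was higher in both later groups than in t=0 (0.34 in HF, 0.46 in HF-Q), whereas Cd79b and Cd22 were not called. Ms4a1 was not called in HF with the slide as a fixed block. Of 9 dendritic cell markers only Itgax, Zbtb46 and Xcr1 are in the table, with differences of -0.01, 0.04 and -0.13 in HF, none called. Of the T cell markers 7 of 9 are in the table with 0 called in HF and 1, Cd8b1 (0.28), in HF-Q, and of the NK cell markers 2 of 7 with 0 called in both. S100a9 of neutrophils was higher in HF and HF-Q (both 0.72) and S100a8 in HF-Q (0.39), of 3 markers in the table. Among other cells, the bile duct genes Krt19, Krt7 and Sox9 (0.42, 0.29 and 0.64), of 6, and the stellate cell gene Colec11 (0.19), of 7, were higher in HF than in t=0, Krt19 and Krt7 not with that block, and Pecam1 of endothelium fell by 0.34, of 7, and Cps1 of hepatocytes by 0.32, of 7. In HF-Q against t=0 Cps1 and Ttr of hepatocytes fell by 0.45 and 0.33. In HF-Q against HF Pecam1 was higher (0.38) and Sox9 fell by 0.60, and no member was called. In t=0 replicate 4 the mean log2 signal was the highest of its group for all 6 lists of immune cells and the lowest, 16.06, for the hepatocyte list, whose other t=0 mice reached 16.68. The part of these list levels in the class II values of this mouse was not tested.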

How the data were processed

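Liver RNA of 36 mice was measured on Agilent arrays, 1 mouse in Cy5 and a common pool in Cy3 on each. Per the submitters' processing notes, the authors quantified the scans with Agilent Feature Extraction 10.5.1.1, which gives the deposited intensities of spot and local background. The series value table deposited by the authors holds log2 values of 23256 spots. These equalled log2 Cy5 minus log2 Cy3 plus the mean log2 Cy3 of the spot, up to a constant per array (median absolute difference 0.020, lowest correlation 0.9999), with a median of 8.96 on every array, so direction and centring are settled. Probe positions are those of build mm8.

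Spots of a probe were averaged, and each pair of groups was compared with limma 3.58.1 in R 4.3.3 (lmFit and eBayes on 24 arrays, two-sided, Benjamini-Hochberg over 21781 probes, adjusted p under 0.05). A gene's value is that of its brightest probe by mean Cy5. The fit was tested on simulated data. Named genes were Cd74, H2-Aa, H2-K1, every gene with a called probe and, per comparison, the 4 class I and 4 class II genes with the largest difference, 20 in all, with others named for a single mouse, a role or a position. Of 73 member probes, 64 matched a current RefSeq gene by accession. Groups came from the sample labels. The replicate numbers did not pair mice, since 3 or 4 of 12 pairs correlated above 0.1 in each comparison. All 9 slides hold all 3 groups. The precision is limited by 12 arrays a group. The alternatives were the scaling, the filter, the fit, the block and left-out mice. The members, gene lists and tests were chosen with earlier results of these data known. Of the genes in the lists, 1 is not reported here.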

Additional observations from a re-analysis of the deposited data

How the results depend on the processing

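In HF-Q against HF the count of called members, 0, became 2 with normexp and loess on the scanner intensities and 1 with all 73 probes on those values, and stayed at 0 under the other alternatives. In HF against t=0 it moved from 12 to 6 with the slide as a fixed block and to 6 with all 73 probes after normexp and loess. It was 8 after quantile normalization, 8 by the methods' t-test and 18 with array weights. Under the other alternatives of scaling, filter, fit and block it was 10 to 12. The class II count moved from 8 to 5 with normexp and loess, 6 with the Feature Extraction processed signals, 4 after quantile normalization and 3 with the slide block. With that block 17.3% of all probes were called. It was 4 by the methods' t-test, 3 with all 73 probes after normexp and loess and 13 with array weights, where 28.5% of all probes were called. Leaving out t=0 replicate 4, HF replicate 5 or HF replicate 9 in turn gave 7 to 20 called members and 3 to 13 called class II probes. Of all probes, 20.9 to 24.0% were called with these mice left out. These leave-outs and the separate count of class II probes were chosen after seeing the data. In HF-Q against t=0 the counts of 5 and 3 became 18 and 12 with array weights, where 19.4% of all probes were called. They were 7 and 4 with all 36 arrays in one fit, and 4 and 2 with the slide as a fixed block and by the methods' t-test. With mice left out they lay at 5 to 18 and 2 to 14. The replicate block gave 0, 11 and 5 called members in HF-Q against HF, HF against t=0 and HF-Q against t=0, and 0, 8 and 3 class II probes. Centring on the array median changed nothing, since the deposited medians are already equal. Of 357, 336 and 336 recomputed differences of named genes in HF-Q against HF, HF against t=0 and HF-Q against t=0 none reversed after a call. In HF against t=0, 33 lost and 9 gained the threshold, in HF-Q against t=0, 24 gained it, and 9 and 3 uncalled differences changed sign, as did 25 in HF-Q against HF, the largest at 0.093. The causes of these shifts were not tested. Dim probes outside the value table limit what can be said of H2-Ea, H2-Eb2 and H2-Ob.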
